A study of Homo sapiens with 2 samples.

Results

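BMP4, SMAD7 and ID1 are genes of BMP and TGF-beta signalling that the study associated with colorectal-cancer-specific super enhancers, which are large clusters of neighbouring enhancers. The loops described here joined 2 different anchors, DNA segments of a few kilobases, with midpoints up to 2 Mb apart and at least 1 anchor within 50 kb of the start site of 1 of the 3 genes. There were 390 such loops in replicate 1 and 432 in replicate 2, which came to 723 different loops of 1973472 in the genome. BMP4 had 272 of them, SMAD7 269 and ID1 182. The study measured H3K27ac HiChIP in HCT116, an established human colorectal cancer cell line grown in medium with serum, with no other treatment in the labels. Both samples were replicates of this 1 condition, and no source used here says whether they came from separate cultures, so the spread between them may be technical. HiChIP ligates DNA ends that lie close together in the nucleus and then pulls down the pairs that carry a chosen histone mark, here the acetylation of lysine 27 of histone H3, which marks active enhancers and promoters. A count is the number of paired-end reads that joined 2 anchors.

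BMPs and TGF-beta are secreted ligands that bring receptor kinases together, and the receptors phosphorylate SMAD proteins, which enter the nucleus and bind DNA. BMP4 is such a ligand and is known for its part in the growth and differentiation of the intestinal epithelium. SMAD7 is an inhibitory SMAD that blocks the receptors, is itself induced by the pathway and lies near variants linked to colorectal cancer risk. ID1 is an inhibitor of basic helix-loop-helix transcription factors and a textbook direct target of BMP signalling.

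Each promoter, taken as the start site ± 2.5 kb, met 1 anchor, which held the start site of the canonical transcript. The BMP4 promoter anchor lay at chr14:54419577-54425007 of hg19 and held exons 1 and 2 of BMP4. The SMAD7 promoter anchor lay at chr18:46475859-46479692 and held exon 1. The ID1 promoter anchor lay at chr20:30191021-30194999 and held exons 1 and 2, the whole of this short gene. The anchors began and ended at MboI sites (GATC), the sites cut in the assay, and held 11, 12 and 17 of them. The 250 bases before each start site are shown because every promoter loop below starts from the anchor around them. They are the hg19 sequence in the direction of the gene, with MboI sites and the GC-rich SMAD element GGCGCC in capitals, at chr14:54423544-54423793 (minus strand), chr18:46477336-46477585 (minus strand) and chr20:30192836-30193085 (plus strand).
BMP4 promoter: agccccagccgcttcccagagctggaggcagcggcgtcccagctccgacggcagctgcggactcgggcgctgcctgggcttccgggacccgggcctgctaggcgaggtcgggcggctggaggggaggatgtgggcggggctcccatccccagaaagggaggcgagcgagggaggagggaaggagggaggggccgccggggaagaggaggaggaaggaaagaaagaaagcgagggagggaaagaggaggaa
SMAD7 promoter: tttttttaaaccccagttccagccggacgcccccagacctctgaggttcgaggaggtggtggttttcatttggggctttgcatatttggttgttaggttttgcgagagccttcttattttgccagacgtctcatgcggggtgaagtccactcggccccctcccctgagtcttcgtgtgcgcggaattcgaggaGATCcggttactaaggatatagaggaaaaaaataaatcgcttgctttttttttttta
ID1 promoter: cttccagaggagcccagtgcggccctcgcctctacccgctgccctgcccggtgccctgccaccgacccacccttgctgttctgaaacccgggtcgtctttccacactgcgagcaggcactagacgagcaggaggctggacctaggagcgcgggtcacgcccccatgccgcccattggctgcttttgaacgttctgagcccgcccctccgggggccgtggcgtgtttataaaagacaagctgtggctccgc
Only the SMAD7 stretch held a capital run, 1 MboI site, and none of the 3 held GGCGCC, which 22.2% of all 19856 protein-coding promoters had in their own 250 bases.

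Over the full start site ± 2.5 kb the 3 promoters differed in elements that SMAD proteins are known to bind. All motifs were searched on both strands, and a match is only a match of letters. SMAD7 had 12 matches to GGCGCC, a number that 0.161% of all protein-coding promoters reached, whereas BMP4 had 3 and ID1 had 2. At least 1 such match was present in 72.8% of all promoters. SMAD7 also had 1 match to the palindromic SMAD element GTCTAGAC, present in 2.77% of promoters and in neither BMP4 nor ID1. ID1 had 2 matches to the bipartite BMP-responsive element, GNCGNC and GTCT with 5 bases between them, a number that 0.373% of promoters reached. At least 1 was present in 6.59% of promoters, and BMP4 and SMAD7 had none in their windows. Both elements are shown with their surroundings because they lay inside the promoter anchors, the palindrome 1.49 kb upstream of the SMAD7 start site at chr18:46478518-46478635 (minus strand) and the bipartite element 0.919 kb upstream of the ID1 start site at chr20:30192111-30192235 (plus strand). Capitals mark these 2 elements and GGCGCC.
SMAD7 palindromic element: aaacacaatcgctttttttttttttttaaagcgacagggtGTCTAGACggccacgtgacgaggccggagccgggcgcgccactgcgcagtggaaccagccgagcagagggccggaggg
ID1 bipartite element: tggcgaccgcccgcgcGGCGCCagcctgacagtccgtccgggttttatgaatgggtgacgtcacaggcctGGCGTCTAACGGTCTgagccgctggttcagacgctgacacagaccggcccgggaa
In the ID1 stretch a GGCGCC stood 0.973 kb upstream of the start site, near the bipartite element, with no overlap between the matches.

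Distal partners of the promoters were searched for the same elements and for sites of other factors. The AP-1 site, bound by FOS and JUN proteins, was searched as TGANTCA with any base at N, and such matches occurred in 70.6% of all promoters. The TCF site CTTTGAT, bound by the TCF and LEF factors of Wnt signalling, occurred in 43.0%. The windows of BMP4, SMAD7 and ID1 had no match to either. Partner anchors did, and for BMP4 and SMAD7 the 220 bases with most AP-1 and TCF matches in 1 partner are shown on the plus strand, from the BMP4 partner 150 kb upstream (chr14:54572775-54572994) and the SMAD7 partner 46.0 kb upstream (chr18:46524475-46524694). Capitals mark AP-1 and TCF sites.
BMP4 partner: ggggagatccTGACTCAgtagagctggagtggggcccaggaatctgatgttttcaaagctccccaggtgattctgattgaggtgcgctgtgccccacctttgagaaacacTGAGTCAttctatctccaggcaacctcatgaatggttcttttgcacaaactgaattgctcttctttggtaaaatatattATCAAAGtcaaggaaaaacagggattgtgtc
SMAD7 partner: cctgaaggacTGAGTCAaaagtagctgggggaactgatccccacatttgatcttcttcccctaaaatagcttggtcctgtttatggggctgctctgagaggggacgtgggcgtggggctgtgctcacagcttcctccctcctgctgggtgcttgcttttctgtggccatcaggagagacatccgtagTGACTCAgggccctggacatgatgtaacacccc
The BMP4 partner had 4 AP-1 and 2 TCF matches in its full length. Of the 18093 anchors within 10% of its width, 11.1% had as many AP-1 and 21.6% as many TCF matches. The SMAD7 partner had 4 AP-1 matches, reached by 12.7% of anchors of like width. These 2 partners were chosen for their matches. For the other partners examined that had an AP-1 match, the share of like anchors with as many ran up to 86.0%. SMAD elements were present as well, with 1 GTCTAGAC in the BMP4 partner and 1 GGCGCC in the SMAD7 partner, the latter reached by 28.4% of anchors of like width. For GTCTAGAC no share over anchors was computed. At ID1, the partner 34.1 kb upstream held 4 AP-1 sites, 1 GTCTAGAC and 5 GGCGCC elements. Of anchors of like width, 25.1% reached its number of AP-1 sites and 1.98% its number of GGCGCC elements. The ID1 partners 44.1 kb upstream and 99.0 kb downstream held 2 and 1 AP-1 sites, numbers reached by 63.4% and 86.0% of anchors of like width. The ID1 partner 117 kb downstream held 0 AP-1 sites.

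Replicate 1 held 1885481 counts and replicate 2 held 2131466, of which 1187130 and 1369538 joined different anchors within 2 Mb. Most loops were counted once, and 10.2% of all loops were found in both replicates. Promoter anchors were present at 82.9% of protein-coding genes. As a check of the cell type, the 6 epithelial markers EPCAM, CDH1, KRT8, KRT18, KRT19 and CLDN4 had promoter counts between 15 and 135 (median 77), and 4 of them had a loop with a summed count of at least 5. The 8 markers of blood, liver, muscle and nerve cells had 5 to 38 (median 25.5), and 0 of them had such a loop. All 14 had a promoter anchor, and EPCAM at 28 and CDH1 at 15 lay within the range of the other list, so an anchor alone did not mark an active promoter.

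Relative to distance and to the depth of both anchors, 0 of the 723 loops at the 3 genes had more counts than expected at an adjusted p under 0.01, by a one-sided Poisson test of the summed count over all 51094602 anchor pairs of the genome. Over the whole genome 119 loops passed, 0.000233% of all pairs and 0.00603% of counted loops. An unadjusted p under 0.05 was found for 103 BMP4 loops (37.9%), 79 SMAD7 loops (29.4%) and 35 ID1 loops (19.2%), beside 36% of all counted loops, most of which are single counts with an expected count far below 1. The expected count already holds the depth of both anchors. Against distance alone, 8 ID1 loops (4.40%), 3 BMP4 loops (1.10%) and 0 SMAD7 loops passed, beside 0.27% of all counted loops. In replicates 1 and 2 alone, 2 and 5 ID1 loops and 0 and 1 BMP4 loops did. A summed count of at least 5, which 1.47% of all loops reached, was found in 10 ID1 loops (5.49%), 5 BMP4 loops (1.84%) and 3 SMAD7 loops (1.12%).

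The ligand gene BMP4 had the promoter with the most partners of the 3 genes. Its promoter anchor had 47 counts in replicate 1 and 46 in replicate 2, or 36.6 ± 4.24 CPM (SD, n = 2), scaled to the counts between different anchors within 2 Mb. The summed count of 93 (95% Poisson interval 75.1 to 114) was higher than that of 96.9% of the 16469 protein-coding promoters with an anchor, whose median was 31. These counts fell on 57 partners, 36 in replicate 1, 34 in replicate 2 and 13 in both. Of the partners, 37 had a single count and none had more than 6. The median length of a BMP4 promoter contact, weighted by counts, was 225 kb. Within its own 50 kb it had the highest count of 12 anchors, followed by 57 counts of the anchor 23.7 kb upstream. It was also the widest of them, and per kilobase its 17.1 counts were below the 19.6 of the anchor 19.6 kb upstream and the 18.1 of the anchor 26.5 kb downstream.

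**Figure D1:**
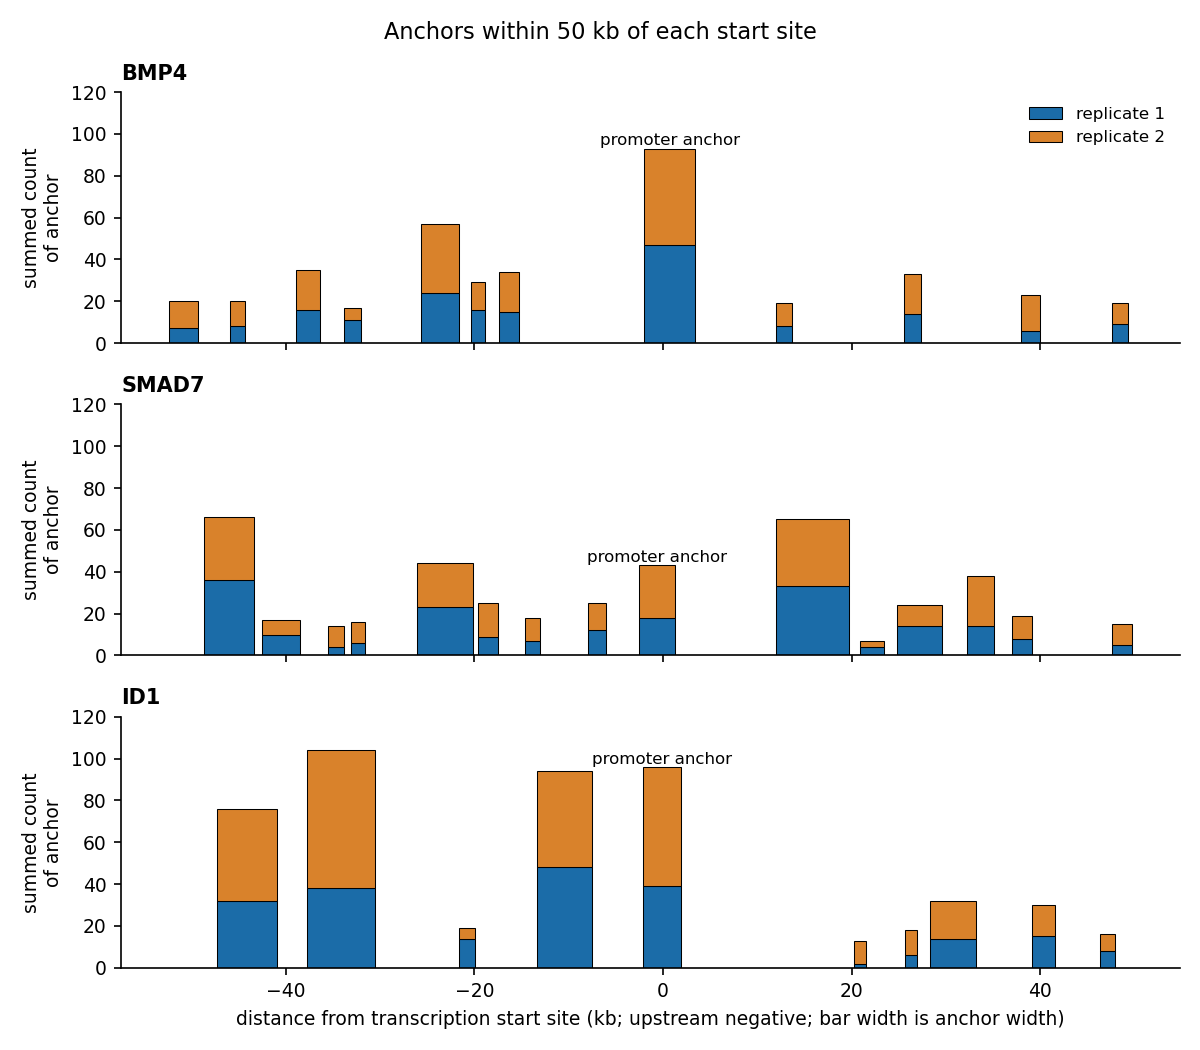
Summed counts of each anchor with all other anchors up to 2 Mb away (vertical axis), stacked by replicate, against the distance from the start site in kb (horizontal axis, upstream negative), for the anchors within 50 kb of BMP4, SMAD7 and ID1. The promoter anchor is the highest of 12 at BMP4 (93), has rank 4 of 15 at SMAD7 (43) and rank 2 of 10 at ID1 (96), where the 3 high anchors beside it all lie upstream.

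The 3 strongest BMP4 promoter loops reached far upstream, over DNA with no protein-coding gene. The anchor 213 kb upstream (chr14:54633036-54638451) had 2 counts with the promoter in replicate 1 and 4 in replicate 2, compared with 1.09 expected in all (observed over expected 5.50, 95% interval 2.02 to 11.97). The anchor 224 kb upstream (chr14:54643035-54650805) had 3 and 2 counts against 1.43 expected (3.50, 1.14 to 8.16). The anchor 150 kb upstream (chr14:54570859-54575834), whose AP-1 and TCF matches are printed above, had 2 and 3 counts against 1.97 expected (2.54, 0.823 to 5.92). All 3 loops were found in both replicates, and each was above the count expected from distance alone (adjusted p = 1.16e-05, 5.20e-04 and 0.00188 in the same order, exact Poisson test over all pairs). In single replicates against distance alone, only the loop at 213 kb passed, in replicate 2 (adjusted p = 0.00500, same exact test). None passed with anchor depth in the expectation, and since the loops were picked as the ones with most counts, their ratios lean high. The next loop, to the anchor 23.7 kb upstream, had 3 and 1 counts against 4.43 expected. Another 4 loops tied at 3 counts. Those 12.8 kb downstream (0 and 3, 3.63 expected), 16.3 kb upstream (1 and 2, 3.73 expected) and 19.6 kb upstream (2 and 1, 2.47 expected) had intervals that include 1, and that 74.98 kb downstream had 1 and 2 counts against 0.521 expected (5.76, 1.19 to 16.8).

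The 3 far upstream anchors of BMP4 spanned 79.9 kb and were deep themselves, with summed counts of 108, 99 and 128 from the nearest to the farthest, each above 99.5% of all anchors. They are wide, and per kilobase they were above 99.2%, 98.4% and 97.5% of anchors. They also had counts with each other, though not more than expected in every pair, and no intervals were computed for these pairs. The anchors at 150 and 224 kb shared 4 counts in each replicate against 3.77 expected in all. Those at 150 and 213 kb shared 1 and 5 counts against 3.48 expected. Those at 213 and 224 kb, which are neighbours, shared 4 and 7 counts, fewer than the 22.2 expected. With the anchor 23.7 kb upstream, those at 150, 213 and 224 kb shared 0, 1 and 2 counts, where 0.700 and 0.796 were expected for the last 2 pairs, and a count of 0 allows up to 3.

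**Figure D2:**
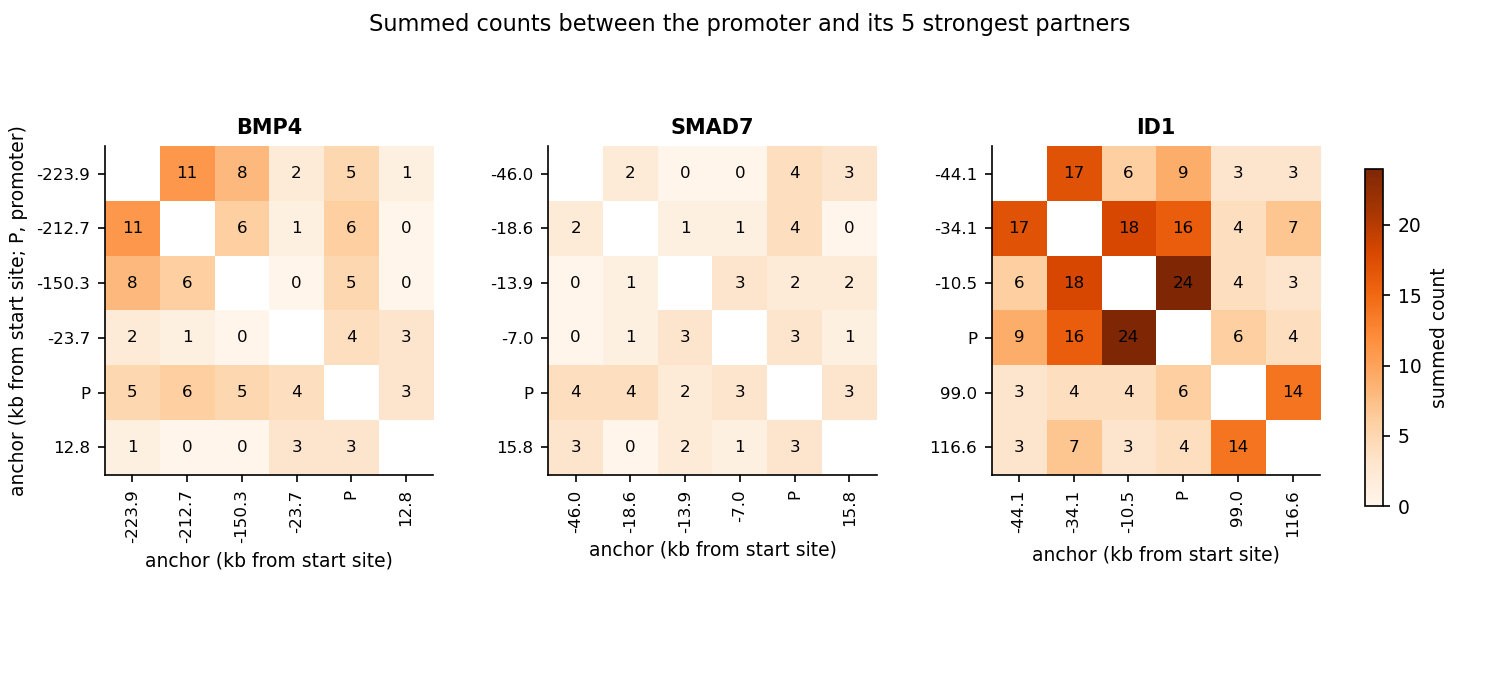
Summed counts of both replicates (numbers and colour) between the promoter anchor (P) and its 5 partners with the highest counts (the shorter loop where counts tied), for each gene, with anchors named on both axes by their distance from the start site in kb (upstream negative). At BMP4 the 3 anchors 150 to 224 kb upstream share 6 to 11 counts with each other, at SMAD7 no pair of the 5 partners drawn has more than 3, and at ID1 all 10 pairs of partners have at least 3. Expected counts are not drawn, and some high counts lie below them. Examples are 11 against 22.2 expected at 213 and 224 kb upstream of BMP4 and 17 against 23.6 at 34.1 and 44.1 kb upstream of ID1.

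Of the 57 BMP4 partners, 46 lay outside protein-coding genes, a share that was not computed over all promoters. Only 2 held the start site of another protein-coding gene, CDKN3 440 kb upstream (1 and 0 counts) and STYX 1226 kb downstream (0 and 1 counts). CDKN3 encodes a phosphatase that acts on cyclin-dependent kinases. The protein-coding gene whose body held most partners was SAMD4A, with 3 partners and 3 counts, and 21 partners overlapped the long noncoding RNA gene ENSG00000237356 downstream of BMP4.

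The inhibitor gene SMAD7 had the lowest promoter counts of the 3 genes. Its promoter anchor had 18 counts in replicate 1 and 25 in replicate 2, or 16.7 ± 2.19 CPM (SD, n = 2). The sum of 43 (31.1 to 57.9) was above that of 69.6% of promoters. There were 30 partners, 16 in replicate 1, 19 in replicate 2 and 5 in both, and the highest summed count of a loop was 4. The deepest anchors of the SMAD7 window were not at the promoter. The anchor 46.0 kb upstream had 66 counts (36 and 30) and the anchor 15.8 kb downstream, in an intron of SMAD7, had 65 (33 and 32). The promoter anchor had rank 4 of 15.

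The partners of the SMAD7 promoter with most counts lay close by and mostly upstream. The anchor 18.6 kb upstream (chr18:46494653-46496683) had 1 and 3 counts against 1.14 expected (3.52, 0.958 to 9.005). The deep anchor 46.0 kb upstream (chr18:46520521-46525772) had 2 counts in each replicate against 1.43 expected (2.80, 0.762 to 7.16). The intronic anchor (chr18:46457427-46465129) had 1 and 2 counts against 4.61 expected, and the anchor 7.04 kb upstream had 1 and 2 against 3.97. All 4 of these intervals include 1. At 2 counts followed the anchors 13.9 kb (1 and 1) and 23.1 kb upstream (2 and 0) and an anchor in an intron of DYM 364 kb upstream (0 and 2), where 0.209 counts were expected (9.58, 1.16 to 34.6). As at BMP4, these loops were listed for their counts, so their ratios lean high. At far distances the expected count is so low that 2 counts can lie above it, as also at BMP4 409 kb downstream (2 and 0 counts; 18.9, 2.29 to 68.3). The 3 loops of the window with at least 5 counts did not involve the promoter. They joined the intronic anchor to one 33.7 kb downstream (2 and 4 counts, 3.25 expected), neighbouring anchors at 18.6 and 23.1 kb upstream (3 and 4, 3.66 expected) and the anchor 46.0 kb upstream to its neighbour on the side of the gene (3 and 3, 3.93 expected).

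No partner of the SMAD7 promoter held the start site of another protein-coding gene, and 17 of the 30 lay outside protein-coding genes. These shares were not computed over all promoters. DYM, the next gene upstream, which encodes a protein of the Golgi apparatus, held 5 partners with 6 counts. CTIF, the next gene downstream, a factor of mRNA translation, held 3 partners with 3 counts. All 9 of these counts came from replicate 2 and 0 from replicate 1, so contacts with these neighbouring genes were not repeated.

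The target gene ID1 had the strongest single loops. Its promoter anchor had 39 counts in replicate 1 and 57 in replicate 2, or 37.2 ± 6.20 CPM (SD, n = 2), and the sum of 96 (77.8 to 117) was above that of 97.3% of promoters. The counts fell on 33 partners, 21 and 22 in the replicates and 10 in both. The highest summed count of a loop, 24, was above the highest of 99.6% of promoters, against 6 at BMP4 and 4 at SMAD7. Reads that joined the ID1 promoter anchor to itself were also many, 20 and 23 counts, more than at 99.4% of promoters, compared with 6 and 9 at BMP4 and 2 and 4 at SMAD7.

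**Figure D3:**
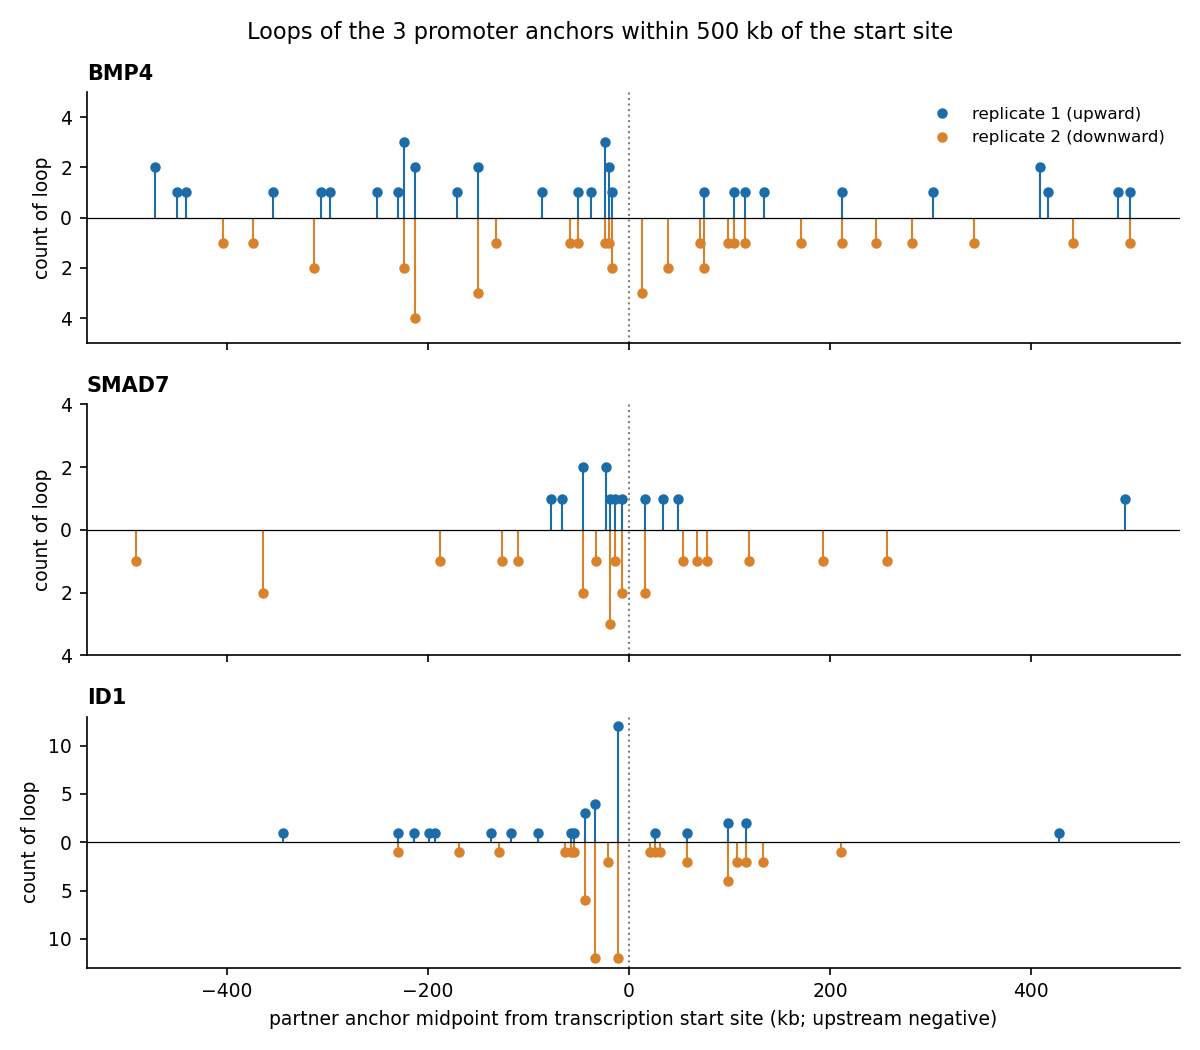
Counts of each loop of the promoter anchors of BMP4, SMAD7 and ID1 (vertical axis, replicate 1 upward and replicate 2 downward, with a scale of its own in each panel) against the midpoint of the partner in kb from the start site (horizontal axis, upstream negative). Partners more than 500 kb from the start site, with 18, 7 and 6 counts in all, are not drawn. ID1 has 3 tall loops within 50 kb upstream, with 24, 16 and 9 counts, and BMP4 has a group between 150 and 224 kb upstream.

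The 3 strongest ID1 loops went to neighbouring anchors upstream and held 49 of the 96 counts (51.0%). The anchor 10.5 kb upstream (chr20:30179701-30185529), between ID1 and HM13, had 12 counts in each replicate. This was 17.0 times the count expected from distance alone, but 22.7 counts were expected from distance and depth (1.06, 0.676 to 1.57). The anchor 34.1 kb upstream (chr20:30155309-30162592), over exons 12 and 13 of HM13, had 4 and 12 counts against 7.47 expected (2.14, 1.22 to 3.48). The anchor 44.1 kb upstream (chr20:30145749-30152156), over exons 9 and 10 of HM13, had 3 and 6 against 4.18 expected (2.15, 0.985 to 4.09). These loops too were picked for their counts, so their ratios lean high. HM13 encodes a signal peptide peptidase of the endoplasmic reticulum, and 6 ID1 partners within it had 31 counts, 10 in replicate 1 and 21 in replicate 2.

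Downstream of ID1 the stronger partners were in BCL2L1, which encodes the apoptosis inhibitor BCL-XL. An intronic anchor 99.0 kb downstream (chr20:30289093-30295125) had 2 and 4 counts against 3.09 expected (1.94, 0.712 to 4.22). The anchor 117 kb downstream (chr20:30307470-30311834), which held the BCL2L1 start site, had 2 counts in each replicate against 2.10 expected (1.90, 0.518 to 4.87). In all 4 BCL2L1 partners had 15 counts, 5 and 10. The partners of ID1 contacted each other as well. The anchor 34.1 kb upstream shared 8 and 10 counts with that at 10.5 kb (9.66 expected; 1.86, 1.10 to 2.95) and 4 and 3 counts with the BCL2L1 promoter anchor (1.77 expected; 3.95, 1.59 to 8.13). All 10 pairs among the 5 strongest ID1 partners had counts, 79 in sum, and 8 of them had counts in both replicates. Not all of them exceeded expectation. The anchors 44.1 and 34.1 kb upstream shared 4 and 13 counts against 23.6 expected (0.719, 0.419 to 1.15). Those 99.0 and 117 kb downstream shared 7 counts in each replicate against 14.6 expected in all.

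The ID1 promoter was the only 1 of the 3 with more than 2 partners at start sites of other genes. It had 8 such partners with 13 counts in sum, and the 1 partner at the BCL2L1 start site had 4 of these counts. MCTS2 (1 and 1 counts), a gene inside HM13, and TPX2 (0 and 2), a factor of spindle assembly, followed, and the rest had 1 count each. All 8 intervals of observed over expected include 1. The partners at the COX4I2 and HM13 start sites had fewer counts than the 2.68 and 1.88 expected. How often partners of other promoters held start sites was not computed, so the number cannot be called particular to ID1.

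By their summed counts, the promoters differed in how far their contacts reached. Beyond 100 kb lay 37 of 47 and 31 of 46 BMP4 promoter counts in replicates 1 and 2, in sum 73.1% (95% Clopper-Pearson interval 62.9 to 81.8), where 62.5% was expected. For SMAD7 it was 6 of 18 and 11 of 25, in sum 39.5% (24.98 to 55.6) against 49.7% expected, and for ID1 13 of 39 and 13 of 57, in sum 27.1% (18.5 to 37.1) against 35.7% expected. The BMP4 share was higher than that of 95.6% of the 12155 promoters with at least 20 counts, whose median was 51.2%, and 2.97% of these promoters had a lower share than ID1. In Fisher exact tests of the summed counts over the 3 pairs of genes, BMP4 differed from SMAD7 (adjusted p = 3.92e-04) and from ID1 (adjusted p = 6.38e-10), and SMAD7 did not differ detectably from ID1 (12.5 points, adjusted p = 0.167). The tests compare reads of these libraries and treat each read as independent. They ask whether the shares were equal, and the expected shares already differed in the same order (62.5%, 49.7% and 35.7%). They therefore do not test whether reach differed beyond the expectation. With each loop counted once the shares were 78.9%, 53.3% and 60.6% and neither difference of BMP4 passed the exact test (adjusted p = 0.0757 and 0.131), and with replicate 2 alone the difference of BMP4 from SMAD7 did not pass (adjusted p = 0.0774).

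Split by side and distance, 2 of 23 classes had a 95% interval wholly above the expectation and 0 wholly below. The intervals were not adjusted for the number of classes. How often classes of other promoters lie above expectation was not computed, so these 2 cannot be called unusual. Expected counts of classes, sides and reach kept each pair in the depth of its anchors. BMP4 had 17 and 14 counts 100 to 500 kb upstream against 19.6 expected in all (1.58, 1.07 to 2.24). ID1 had 10 and 23 counts 20 to 100 kb upstream against 20.1 expected (1.64, 1.13 to 2.30). At SMAD7 the largest ratio was 1.39, upstream and up to 20 kb (3 and 6 counts, 0.637 to 2.64). The intervals cover counting error only, and 23 of the 33 ID1 counts in that class came from replicate 2.

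**Figure D4:**
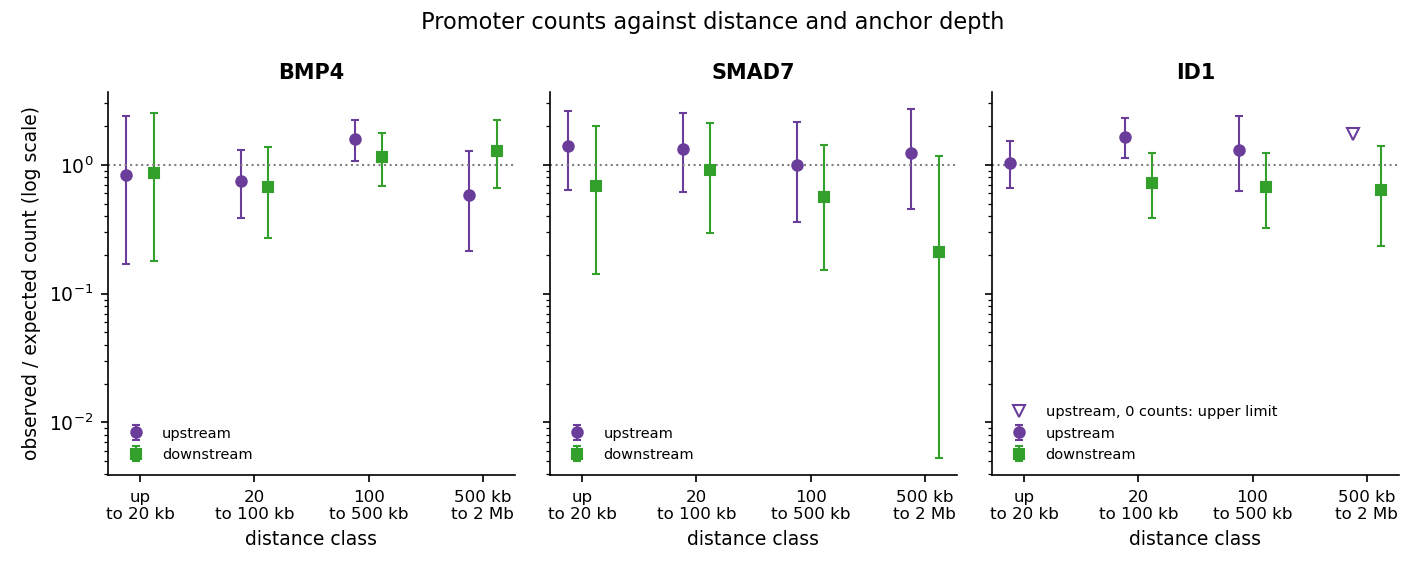
Observed over expected counts of the 3 promoters (vertical axis, log scale) in 4 classes of distance (horizontal axis), upstream (circles) and downstream (squares) of the start site, with exact 95% Poisson intervals and the expectation at 1 as a dotted line. The open triangle is the upper limit for ID1 upstream beyond 500 kb, where 0 counts were found, and ID1 had no anchor within 20 kb downstream. Intervals, not adjusted for the number of classes, lie wholly above 1 for BMP4 upstream at 100 to 500 kb (1.58) and ID1 upstream at 20 to 100 kb (1.64).

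Promoter contacts of SMAD7 and ID1 lay more upstream than downstream, but not beyond the genome-wide threshold. ID1 had 29 of 39 and 38 of 57 counts upstream, in sum 69.8% (59.6 to 78.7) against 55.8% expected (exact conditional binomial test, two-sided, p = 0.00545, adjusted p = 0.115 over 12155 promoters). SMAD7 had 14 of 18 and 16 of 25 upstream, also 69.8% (53.9 to 82.8), against 52.5% expected (p = 0.0314, adjusted p = 0.280, same exact test). BMP4 had 29 of 47 and 23 of 46 upstream, 55.9% (45.2 to 66.2) against 55.3% expected (p = 1, same exact test). An adjusted p under 0.05 was found for 2.71% of promoters and an unadjusted p under 0.05 for 14.6%. Against distance alone the ID1 side passed the exact test (adjusted p = 2.80e-05), with no anchor within 20 kb downstream of its start site. In that setting 5.19% of promoters had an adjusted p under 0.05.

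To place the 3 genes in their pathway, 58 genes of BMP and TGF-beta signalling were described in the same way. A promoter anchor was present at 50 of them. A promoter loop with a summed count of at least 5 was found at 24 (41.4%), beside 29.7% of all protein-coding genes. A loop above distance and depth was found at 0 of the 58, beside 0.121% of all genes, and above distance alone at 9, beside 8.18% of all genes. The median promoter count was 35.5, and 26 over all protein-coding genes, with genes without an anchor at 0. By promoter count ID1 had rank 5 and BMP4 rank 6, tied with NOG. These counts were not scaled to the width of the promoter anchors. Per kilobase BMP4 had 17.1 counts and ID1 24.1, beside a median of 7.81 over promoters with an anchor. The other genes of rank 1 to 6 were SMAD3 (36.9 per kilobase), ID2 (21.8), ID3 (12.3), TGFBR2 (7.89) and NOG (5.88). By its strongest loop ID1 had rank 1 of the 58.

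Of the 16 ligand genes 3 had a loop of at least 5 counts, and 5 had no anchor (BMP2, BMP5, BMP6, INHBA and INHBB). BMP4 at 93 counts was the highest and TGFB3 followed with 71 (41 and 30), without a loop of 5. Of the 12 receptor genes 8 had such a loop. The TGF-beta receptor TGFBR2 had 119 counts (49 and 70), with a strongest loop of 13 and 7 counts, and the co-receptor ENG had 72 (37 and 35). Of the 6 genes of signal-carrying SMADs 2 had such a loop, SMAD3 and SMAD5. By promoter counts SMAD3 with 150 (68 and 82) stood far above SMAD2, which followed with 40 (16 and 24) and had no such loop.

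Of the 8 inhibitors inside the cell 4 had a loop of at least 5 counts. SMURF2, a ubiquitin ligase that acts with SMAD7 on receptors, had 87 counts (40 and 47) and TGIF1, a transcriptional corepressor, had 82 (35 and 47), both above the 43 of SMAD7. Of the 8 antagonists outside the cell 2 had such a loop, NOG and FST. NOG, the BMP-binding protein noggin, had 93 counts (46 and 47). FST (16 and 20) and CHRD, which encodes chordin (17 and 19), tied at 36, and CHRD had no such loop. Of the 8 targets 5 had such a loop. The highest were ID2 with 170 counts (78 and 92), ID3 with 109 (52 and 57) and ID1 with 96, while ID4 had 41. The reach of ID2 differed from that of ID1, with 70.6% of its counts beyond 100 kb against 27.1%, and ID3 lay between with 43.1%, differences that were not tested.

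**Figure D5:**
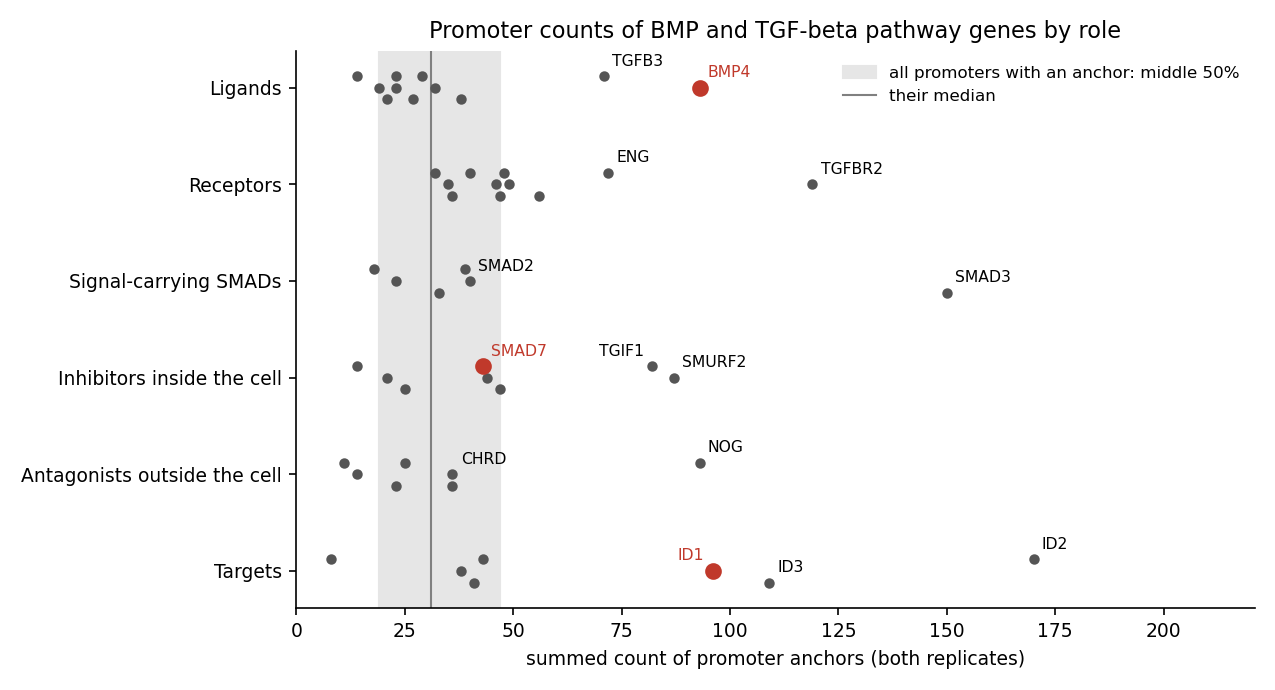
Summed promoter counts of both replicates (horizontal axis) of the 50 pathway genes with a promoter anchor, by role (vertical axis), with BMP4, SMAD7 and ID1 in red. The grey band is the middle 50% of all 16469 promoters with an anchor and the line their median of 31. BMP4 (93) and ID1 (96) lie right of the band and SMAD7 (43) lies within it. Counts are not scaled to anchor width.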

How the data were processed

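H3K27ac HiChIP was analysed in 2 replicates of HCT116. The authors digested chromatin with MboI, made valid pairs with HiC-Pro and loops with hichipper, and deposited raw counts of paired-end tags per anchor pair, not normalized. The labels name HiC-Pro and hg19; versions are not given in the sources used here. The tables hold no molecular identifiers, so intervals and the limit of 3 counts for a count of 0 cover counting error only.

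Counts of both replicates were summed. The count expected of a pair came from 60 distance classes and anchor weights balanced in 20 rounds, fitted in each replicate over all 51094602 pairs within 2 Mb, each pair being excluded from its anchors' depth (offset 0.5). For expected counts summed over classes, sides and reach the pair was kept. The fit and the adjustment were also run on Poisson counts simulated on the anchors of a single chromosome. That simulation used weights already fitted to the data, and its outcome is not given here. Poisson tests were adjusted by Benjamini-Hochberg over all pairs, with a threshold of 0.01, and the side test over all promoters with at least 20 counts, with a threshold of 0.05. Expected counts were also computed from distance alone, and other thresholds, distances, widths and single replicates were tried. Single replicates against distance alone were added after the data were seen. Loops over 2 Mb and counts within 1 anchor entered no test.

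Genes and canonical transcripts came from GENCODE 44 on GRCh37. The start sites of the rule lay 543, 235 and 8 bp from the canonical ones of BMP4, SMAD7 and ID1, inside the same anchors. Named were the 5 loops with most counts of each promoter with ties, promoter loops beyond 100 kb with at least 3 counts, genes starting in their partners, and the 2 genes with most promoter counts in each role of the pathway. Other loops and genes in the text were chosen after their values were seen. Members and lists were chosen with earlier results of these data known. Super enhancer positions were not used here, and the sequence of 1 ID1 partner is not reported here. Python 3.11.15, numpy 2.4.6, scipy 1.17.1, pandas 2.3.3, numba 0.67.0 and pysam 0.24.0 were used.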

Additional observations from a re-analysis of the deposited data

Results flagged for a closer look

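Counts of the promoter anchors with partners more than 2 Mb away lay outside the range of the comparisons and were above the 3 counts that a count of 0 allows. There were 13 at BMP4 (8 and 5 in replicates 1 and 2), 9 at SMAD7 (6 and 3) and 37 at ID1 (20 and 17). No such loop had more than 1 count at BMP4 and SMAD7 or more than 2 at ID1. They made up 12.3%, 17.3% and 27.8% of the counts of these anchors with other anchors, beside 25.02% and 25.13% over the genome in the 2 replicates.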

How the results depend on the processing

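The limits of these data are the low counts of single loops, 2 replicates of 1 condition and an expectation that contains the depth of the anchors. No paired analysis was possible because there was 1 group. Of 116 values under alternatives, 87 were scored as the same as the main value and 29 were not. Tested differences were scored by direction and side of the threshold. Plain counts have neither and were scored by their size. Some alternatives could not change the value, so the tally does not measure how robust the results are. Promoter widths of 1 and 5 kb met the same 3 anchors and could not change their values. Loops above expectation numbered 119 over the genome, 5322 against distance alone (3 at BMP4 and 8 at ID1; in single replicates 1324 to 1796, 0 to 1 and 2 to 5), 42 with the pair kept in the depth, 195 at an adjusted p under 0.05, 209 up to 1 Mb and 9 to 28 in single replicates. In no alternative that kept anchor depth was a loop of the 3 windows called. The upstream share of BMP4 was between -4.35 and 5.39 points from the expected one in single replicates, and that of ID1 12.9 to 15.7 points above. Against distance alone the ID1 share was 26.9 points above (exact test, adjusted p = 2.80e-05), a setting in which 5.19% of promoters passed. For SMAD7 the upstream share was 25.8 points above in replicate 1, which had too few counts for the test, and 11.1 in replicate 2. The share beyond 100 kb in BMP4 minus SMAD7 was 23.4 to 45.4 points in single replicates and 25.6 points with each loop counted once, BMP4 minus ID1 44.6 to 45.4 and 18.3, and SMAD7 minus ID1 0 to 21.2 and -7.27. With loops of at least 2 summed counts the mean promoter count per replicate was 28 at BMP4 and 10 at SMAD7, and the partners were 16.5, 6 and 11.5 for BMP4, SMAD7 and ID1. Pathway genes with a strong loop numbered 40 at a minimum of 3 counts (69.0%, beside 59.9% of all genes), 4 at 10 (6.90%, beside 5.74%), and 7 to 10 in single replicates (12.1% and 17.2%, beside 8.01% and 11.1%). The causes were not tested.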
